A study of Mus musculus with 6 samples.

Results

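Mammalian muscle takes up fatty acids and oxidizes them in mitochondria, and 36 genes of this route were followed in ischemic muscle of mice lacking GPR174, a G protein coupled receptor. The genes were listed by name for their role in uptake and activation, the carnitine shuttle, the steps of beta-oxidation, electron transfer, uncoupling and fuel choice, transcriptional control, and fat release from lipid droplets. All 36 were among the 18089 genes of the deposited table and among the 14395 genes that passed edgeR's filter on low counts, with at least 23 counts in any library (*Plin5*, a lipid droplet protein). RNA was sequenced from gastrocnemius, a calf muscle, of 3 *Gpr174*-/Y mice (GPR174-KO, a global deletion of an X-linked gene) and 3 wild-type (WT) littermates. All were male C57BL/6 mice, 8 to 10 weeks of age, and all had undergone hindlimb ischemia (HLI), in which the femoral artery of 1 leg is tied and removed, 7 days earlier. Muscle without ischemia was not analysed here, so every value below compares the genotypes within injured muscle.

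Long-chain fatty acids enter the fibre through carriers, are bound by a cytosolic binding protein and are activated to acyl-CoA. Carnitine palmitoyltransferase 1 on the outer mitochondrial membrane forms acylcarnitine, which crosses the inner membrane and is turned back to acyl-CoA by carnitine palmitoyltransferase 2. Each turn of beta-oxidation then removes an acetyl unit by dehydrogenation, hydration, a second dehydrogenation and thiolysis, and the electrons reach the respiratory chain through electron transfer flavoprotein. Skeletal muscle, and its oxidative fibres above all, relies on this route at rest and in endurance work, under the control of PPAR receptors, estrogen-related receptors and the coactivator PGC-1alpha.

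Total estimated counts were between 18417077 and 18695013 in the WT libraries and between 19173036 and 19394469 in the GPR174-KO libraries, and 3 counts, taken as the smallest detectable number, correspond to 0.139 to 0.187 CPM (counts scaled to the size of the library, here with TMM factors), a limit that covers counting error only. Reads on *Gpr174* itself were few, with 8, 2 and 5 counts in WT muscle and 1, 0 and 0 in GPR174-KO muscle, in the order of the replicates. In each group, replicate 2 equalled a mix of 0.61 parts of replicate 1 and 0.39 parts of replicate 3: its mean squared deviation from that mix was 0.549 times the counting variance in WT (12244 genes) and 0.45 times in GPR174-KO (12549 genes), where 1 is counting error alone. Replicates 1 and 3 differed by 81.7 and 10.5 times the counting variance. Replicate 2 is therefore not shown to be an independent animal, p-values over 6 libraries are too small if it is not, and counts of called genes are therefore given also for replicates 1 and 3 alone, where edgeR at an adjusted p of 0.05 called 0 genes in any list and DESeq2 gave the numbers below. Genes of the mature fibre took 19.3 to 24.4% of all counts in WT and 10.3 to 11.1% in GPR174-KO, and all 25 listed fell (median log2 fold change -1.31). Macrophage genes summed to 1289 to 2025 CPM in WT and 3718 to 3729 CPM in GPR174-KO, with 10 of 12 higher. Of 11 genes of slow and oxidative fibres 5 were lower and 2 higher. Their median of 0.03 hides a split list. All 5 lower genes had a log2 fold change under -1, with *Myl2* at -4.29 and *Myl3* at -4.11, while *Tnnc1* was higher at 1.09. Genes of regenerating fibres were higher for 9 of 12, and endothelial genes were lower for 13 of 14. DESeq2 on replicates 1 and 3 had 24 fibre genes lower, 9 macrophage genes higher, 4 slow fibre genes lower and 1 higher, 9 regenerating fibre genes higher and 9 endothelial genes lower. The part of these differences in the results below was not tested, and in whole muscle fewer fibres and less RNA of a gene per fibre cannot be told apart.

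The fatty acid genes were on balance lower in GPR174-KO muscle. Of the 36, 31 fell and 2 rose at an adjusted p of 0.05 in edgeR's quasi-likelihood test over all 6 libraries, where 27.6% of all tested genes fell and 27% rose. Past the further threshold of a log2 fold change of 1, 8 fell (4.84% of all genes) and 0 rose (3.45%). The 8 were *Plin5*, *Ucp3*, *Ppara*, *Pdk4*, *Fabp3*, *Acot13*, *Acadvl* and *Ppargc1a*, of which *Ppargc1a* (-1.001) and *Acadvl* (-1.005) lay just past the fold threshold, with *Eci1*, an enoyl-CoA isomerase, just short of it at -0.95. The risers were *Slc27a1*, a fatty acid transporter, and *Cpt1a*, the liver form of carnitine palmitoyltransferase 1. *Lpl*, *Ppard* and *Lipe* did not pass the test. The median log2 fold change of the 36 was -0.70, against 0.0037 for all tested genes. In CPM the groups did not overlap for 33 genes, the 31 that fell and the 2 that rose, and such separation was found for 32.4% of all genes downward and 33.1% upward. Below, "rose" and "fell" refer to this test.

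With replicates 1 and 3 alone, edgeR called 0 of the 36 genes and 0 genes in all, with a lowest adjusted p of 0.0542. At an unadjusted p under 0.05 it had 29 of the 36 lower (18.5% of all genes) and 1 higher (16.3%). Limma voom on the same 4 libraries also called 0 of the 36, and over all genes 16 lower (0.111%) and 1 higher (0.00692%), each past the fold threshold. DESeq2 on those libraries called 25 lower (9.56%), 7 of them past the fold threshold (3.36%), and 0 higher (6.64%, or 1.97% past the fold threshold). *Cd36*, *Cpt2*, *Slc25a20*, *Echs1*, *Acot2* and *Esrra* were the genes that fell over 6 libraries but not in that test. By role it had 2 of 5 genes lower in uptake and activation, 2 of 5 in the carnitine shuttle, 4 of 4 dehydrogenases, 4 of 5 later enzymes, 3 of 3 auxiliary enzymes, 3 of 3 in electron transfer, 3 of 4 in uncoupling and fuel choice, 2 of 4 regulators and 2 of 3 at the lipid droplet. The counts also depend on scaling. TMM, the scaling used here, sets the typical gene to no change, while scaling to the total count moved the median of all genes up by 0.27 on the log2 scale. With total-count scaling, 28 of the 36 were lower (14% of all genes) and 3 higher (50.7%), 4 were lower (2.46%) and 0 higher (7.95%) past the fold threshold, and the median was -0.42. The 4 were *Plin5*, *Ucp3*, *Ppara* and *Pdk4*. *Cd36* and *Ppargc1a* no longer passed, *Acot2* turned from lower to uncalled, and *Ppard* became higher.

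**Figure D1:**
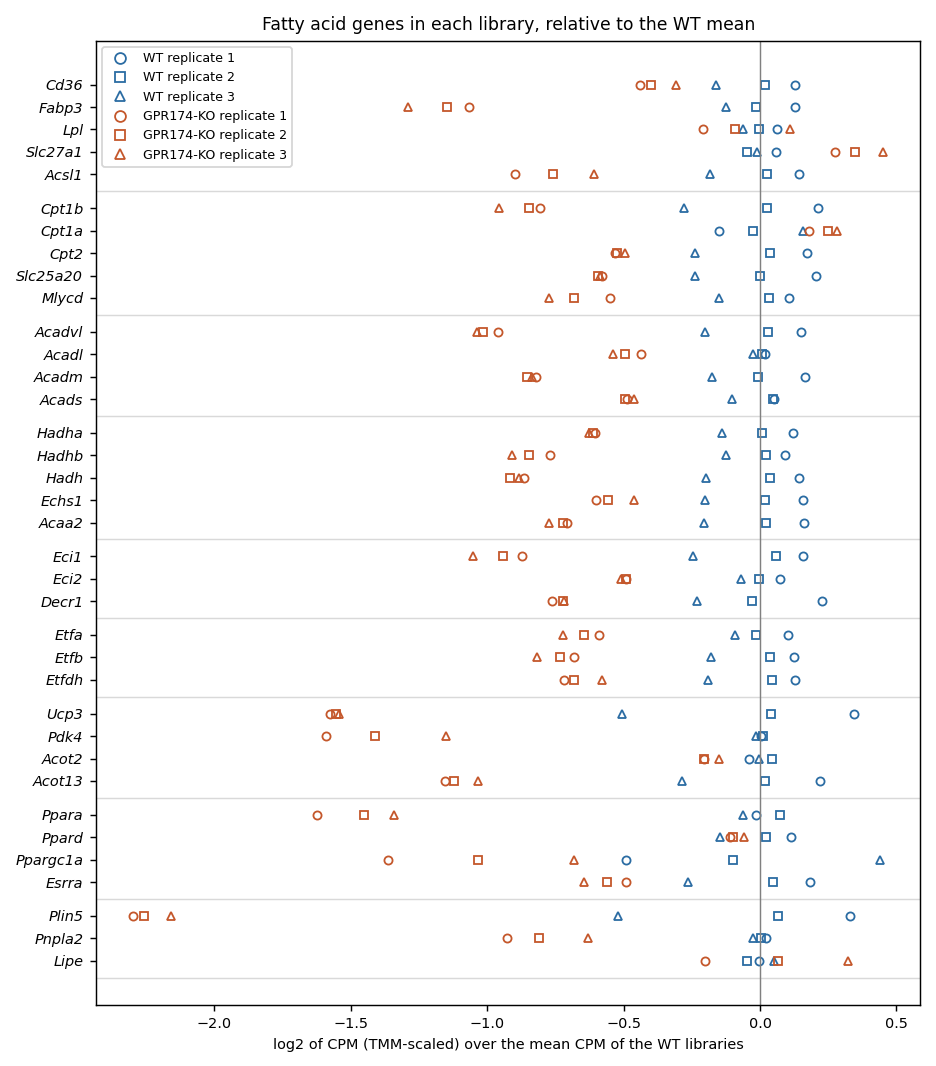
Level of each of the 36 fatty acid genes in each library, as the log2 of its TMM-scaled CPM over the mean of the WT libraries (horizontal axis), with blue for WT, orange for GPR174-KO and the marker shape for the replicate number; grey lines part the roles. GPR174-KO points lie left of every WT point for 31 genes and right of every WT point for *Slc27a1* and *Cpt1a*.

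The sequences before 4 of the start sites are shown because they stand for the ways these genes moved: a gene with a large decrease (*Ucp3*), a dehydrogenase (*Acadvl*), a gene that rose (*Cpt1a*) and one of a pair that share a promoter region (*Hadhb*). PPAR and estrogen-related receptors bind DNA around the core element AGGTCA, printed in capitals (TGACCT on the other strand). The sequences are RefSeq's for build GRCm38.p6, each covering the 250 bases before the start site, written in the direction of the gene. *Ucp3* lies on the plus strand (chr7:100472741-100472990), *Acadvl* on the minus strand (chr11:70015429-70015678), and *Cpt1a* (chr19:3323051-3323300) and *Hadhb* (chr5:30155003-30155252) on the plus strand.
Ucp3: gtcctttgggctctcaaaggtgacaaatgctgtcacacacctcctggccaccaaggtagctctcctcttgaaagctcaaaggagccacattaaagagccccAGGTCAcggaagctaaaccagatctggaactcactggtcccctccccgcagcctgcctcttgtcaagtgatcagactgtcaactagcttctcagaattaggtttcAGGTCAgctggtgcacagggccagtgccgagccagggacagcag
Acadvl: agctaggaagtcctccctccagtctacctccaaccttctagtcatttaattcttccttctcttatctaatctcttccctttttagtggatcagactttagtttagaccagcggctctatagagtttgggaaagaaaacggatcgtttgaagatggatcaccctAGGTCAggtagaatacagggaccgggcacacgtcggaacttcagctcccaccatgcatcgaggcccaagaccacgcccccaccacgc
Cpt1a: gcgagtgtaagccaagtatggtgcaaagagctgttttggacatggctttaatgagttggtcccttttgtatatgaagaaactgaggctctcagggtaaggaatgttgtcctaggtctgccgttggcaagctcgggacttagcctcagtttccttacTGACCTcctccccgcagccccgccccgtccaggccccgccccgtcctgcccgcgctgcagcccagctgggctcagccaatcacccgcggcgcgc
Hadhb: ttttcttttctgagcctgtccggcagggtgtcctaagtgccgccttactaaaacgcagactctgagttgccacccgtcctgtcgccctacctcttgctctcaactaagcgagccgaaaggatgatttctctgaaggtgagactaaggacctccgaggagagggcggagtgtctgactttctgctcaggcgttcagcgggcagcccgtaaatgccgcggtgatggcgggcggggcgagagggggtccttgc
*Ucp3* holds the element at -149 and -44, *Acadvl* at -87 and *Cpt1a* at -94 on the other strand, where -1 is the base before the start site and the position is that of the leftmost base, and *Hadhb* holds none. Of the 36 genes, 31 were matched in the sequence table, and 7 of the 31 held the element on either strand in any of their windows (22.6%). The share was 15.8% of 27025 genes, and 13.3% of the 11404 of them that were tested for expression. The genes with the element were *Acadm*, *Acadvl*, *Cd36*, *Cpt1a*, *Echs1*, *Plin5* and *Ucp3*, that is 6 genes that fell and 1 that rose. For *Cd36* and *Plin5*, bases just past the start site of that window were not found in a reference transcript of the gene. The longer estrogen-related receptor element TCAAGGTCA, which overlaps the core element, was in 0 of the 31 (0.422% of genes), and a direct repeat of the core element with any 1 base between was also in 0 of the 31 (0.0407%). These are matches of letters in a short window and not binding sites.

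At the entry to the route, 3 of 5 genes fell and 1 rose. *Fabp3*, the fatty acid binding protein of heart and muscle, had 311, 282 and 261 CPM in WT replicates 1, 2 and 3 and 136, 128 and 116 CPM in GPR174-KO, with no overlap (log2 fold change -1.17 ± 0.09, standard error, adjusted p = 0.000566). Per transcript length it was the most abundant of the 36 in both groups, with a mean of 769 in WT (as TPM, the deposited unit scaled for length and library size) and 450 TPM in GPR174-KO. *Acsl1*, the main muscle acyl-CoA synthetase, which activates long-chain fatty acids, fell by 0.75 ± 0.11 on the log2 scale. *Cd36*, the fatty acid carrier of fibres, capillaries and macrophages, had 207, 191 and 169 CPM in WT and 139, 143 and 152 CPM in GPR174-KO (log2 fold change -0.38 ± 0.08). Its fall depended on scaling: with total-count scaling the log2 fold change was -0.10 with an adjusted p of 0.247, and in TPM the means were 115 and 117.

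*Slc27a1*, also called FATP1, a transporter that couples uptake to activation, went the other way. It had 43.4, 40.2 and 41.3 CPM in WT and 50.4, 52.9 and 56.9 CPM in GPR174-KO (log2 fold change 0.36 ± 0.06, adjusted p = 0.00358). *Lpl*, the lipase that frees fatty acids from lipoproteins at the capillary wall, had 341, 325 and 313 CPM in WT and 282, 306 and 352 CPM in GPR174-KO, and the groups overlapped. Its log2 fold change was -0.06 ± 0.09 (adjusted p = 0.626) and 0.22 with total-count scaling.

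The carnitine shuttle was split between the forms of its first enzyme. *Cpt1b*, the muscle form, had 295, 259 and 210 CPM in WT and 146, 141 and 131 CPM in GPR174-KO (log2 fold change -0.87 ± 0.12, adjusted p = 0.00196). *Cpt1a*, the form of liver and many non-muscle cells, had 51.0, 55.6 and 63.1 CPM in WT and 64.1, 67.2 and 68.8 CPM in GPR174-KO. The highest WT library was thus close to the lowest GPR174-KO library, and the log2 fold change of 0.24 ± 0.08 was barely past the threshold (adjusted p = 0.0452) and was lost on leaving out any library other than WT replicate 3 (adjusted p 0.074 to 0.131 in edgeR). On the TPM scale *Cpt1b* exceeded *Cpt1a* by 8.54, 6.88 and 4.91 times in WT and by 3.35, 3.11 and 2.83 times in GPR174-KO, so the muscle form remained the more abundant in every library and the ratios of the groups did not overlap. The ratio is free of library scaling. *Cpt2*, which reforms acyl-CoA inside the mitochondrion, fell by 0.52 ± 0.10, *Slc25a20*, the carnitine-acylcarnitine translocase, fell by 0.58 ± 0.11, and *Mlycd*, which degrades malonyl-CoA, the inhibitor of carnitine palmitoyltransferase 1, fell by 0.66 ± 0.09 on the log2 scale.

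All 4 acyl-CoA dehydrogenases, which open each turn of beta-oxidation on chains of different length, fell. *Acadvl*, for very long chains, had 250, 229 and 196 CPM in WT and 116, 111 and 110 CPM in GPR174-KO (log2 fold change -1.005 ± 0.09, adjusted p = 0.000797), with every GPR174-KO library well under the lowest WT library. With replicates 1 and 3 alone its log2 fold change was -0.99 in DESeq2, short of the fold threshold, and leaving out 1 library it lay between -1.09 and -0.91. *Acadm*, for medium chains, fell by 0.84 ± 0.09 on the log2 scale. *Acadl*, for long chains, and *Acads*, for short chains, fell by 0.49 ± 0.06 and 0.48 ± 0.06. On the TPM scale *Acadl* was the second most abundant of the 36 in both groups, at 277 TPM in WT and 258 TPM in GPR174-KO.

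All 5 enzymes of the later steps fell as well, within a narrow range. *Hadh*, the 3-hydroxyacyl-CoA dehydrogenase of medium and short chains, had 207, 192 and 163 CPM in WT and 103, 99.2 and 101 CPM in GPR174-KO (log2 fold change -0.89 ± 0.09, adjusted p = 0.000900). *Hadhb*, the beta subunit of the trifunctional protein, fell by 0.84 ± 0.08, *Acaa2*, a thiolase, by 0.73 ± 0.09, and *Echs1*, the short-chain hydratase, by 0.54 ± 0.10 on the log2 scale. *Hadha*, the alpha subunit that joins *Hadhb* in 1 complex, fell by 0.61 ± 0.08. The subunit genes lie head to head on chromosome 5 with 272 bases between their start sites in GRCm38.p6. On the TPM scale *Hadha* was 1.08, 1.05 and 1.04 times *Hadhb* in WT and 1.18, 1.24 and 1.28 times in GPR174-KO, so the decrease of the partners was unequal and the ratios did not overlap.

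The 3 auxiliary enzymes that prepare unsaturated chains and the 3 genes of electron transfer fell without exception. *Eci1* had 80.5, 75.1 and 60.8 CPM in WT and 39.4, 37.6 and 34.8 CPM in GPR174-KO (log2 fold change -0.95 ± 0.11, adjusted p = 0.00119). *Eci2*, another isomerase, fell by 0.50 ± 0.05 and *Decr1*, the dienoyl-CoA reductase, by 0.73 ± 0.11 on the log2 scale. *Etfb*, the beta subunit of electron transfer flavoprotein, had 135, 127 and 109 CPM in WT and 77.2, 74.5 and 70.1 CPM in GPR174-KO (log2 fold change -0.74 ± 0.09, adjusted p = 0.00122). Its partner *Etfa* fell by 0.65 ± 0.07, and *Etfdh*, which passes the electrons to ubiquinone, fell by 0.66 ± 0.09. Across the 20 genes from carnitine shuttle to electron transfer, 19 fell, and only *Acadvl* of them passed the fold threshold over 6 libraries.

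The genes of uncoupling, fuel choice and acyl-CoA hydrolysis all fell, 3 of 4 past the fold threshold. *Ucp3*, the uncoupling protein of muscle mitochondria, had 169, 137 and 94.0 CPM in WT and 44.8, 45.4 and 45.8 CPM in GPR174-KO. The WT libraries spread widely and the GPR174-KO libraries hardly at all, and the log2 fold change was -1.56 ± 0.20 (adjusted p = 0.00146). *Pdk4*, the kinase that shuts pyruvate dehydrogenase and so spares glucose, had 356, 357 and 351 CPM in WT and 118, 133 and 160 CPM in GPR174-KO (log2 fold change -1.37 ± 0.11, adjusted p = 0.000620). Here the spread was on the GPR174-KO side. *Acot13*, a thioesterase that splits acyl-CoA, fell by 1.10 ± 0.13 on the log2 scale. *Acot2*, a thioesterase of the mitochondrial matrix, had 14.4, 15.2 and 14.7 CPM in WT and 12.8, 12.8 and 13.3 CPM in GPR174-KO (log2 fold change -0.19 ± 0.06, adjusted p = 0.0336), and it was at 0.085 with total-count scaling. That call, too, was lost on leaving out any library other than GPR174-KO replicate 3 (adjusted p 0.054 to 0.154 in edgeR).

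The regulators did not move together. *Ppara*, the PPAR receptor that drives fatty acid oxidation genes, had 15.2, 16.1 and 14.7 CPM in WT and 4.97, 5.60 and 6.05 CPM in GPR174-KO (log2 fold change -1.47 ± 0.09, adjusted p = 0.000409, the lowest of the 36). *Ppard*, the PPAR receptor most abundant in muscle, had 66.5, 62.4 and 55.6 CPM in WT and 57.0, 57.4 and 59.0 CPM in GPR174-KO. The groups overlapped, and the log2 fold change was -0.09 ± 0.07 (adjusted p = 0.327), or 0.19 with total-count scaling (adjusted p = 0.0254), while edgeR without WT replicate 3 called it lower (adjusted p = 0.038). On the TPM scale *Ppara* was at 3.65 and *Ppard* at 33.1 in WT, against 1.72 and 40.9 in GPR174-KO. *Ppargc1a*, which encodes PGC-1alpha, had 42.1, 55.3 and 80.2 CPM in WT and 23.0, 28.9 and 36.9 CPM in GPR174-KO. The lowest WT library and the highest GPR174-KO library were close, and the log2 fold change of -1.001 ± 0.26 (adjusted p = 0.0167) had the largest standard error of the 36. Its log2 fold change was -0.74 with total-count scaling (adjusted p = 0.0611), and in TPM the groups overlapped. Without GPR174-KO replicate 1 or 2 its adjusted p in edgeR was 0.059 and 0.057. *Esrra*, the estrogen-related receptor alpha that works with PGC-1alpha, fell by 0.56 ± 0.11 on the log2 scale.

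At the lipid droplet, *Plin5*, which ties droplets to mitochondria in oxidative tissue, had the largest decrease of the 36. It had 6.78, 5.65 and 3.76 CPM in WT and 1.10, 1.13 and 1.21 CPM in GPR174-KO (log2 fold change -2.22 ± 0.25, adjusted p = 0.00112). It was also among the least abundant. *Pnpla2*, the adipose triglyceride lipase that starts fat breakdown, had 208, 206 and 201 CPM in WT and 108, 117 and 132 CPM in GPR174-KO (log2 fold change -0.78 ± 0.08). *Lipe*, the hormone-sensitive lipase of the next step, had 31.8, 30.8 and 33.0 CPM in WT and 27.7, 33.3 and 39.9 CPM in GPR174-KO. The GPR174-KO libraries lay on both sides of the WT libraries, and the log2 fold change was 0.08 ± 0.13 (adjusted p = 0.626).

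**Figure D2:**
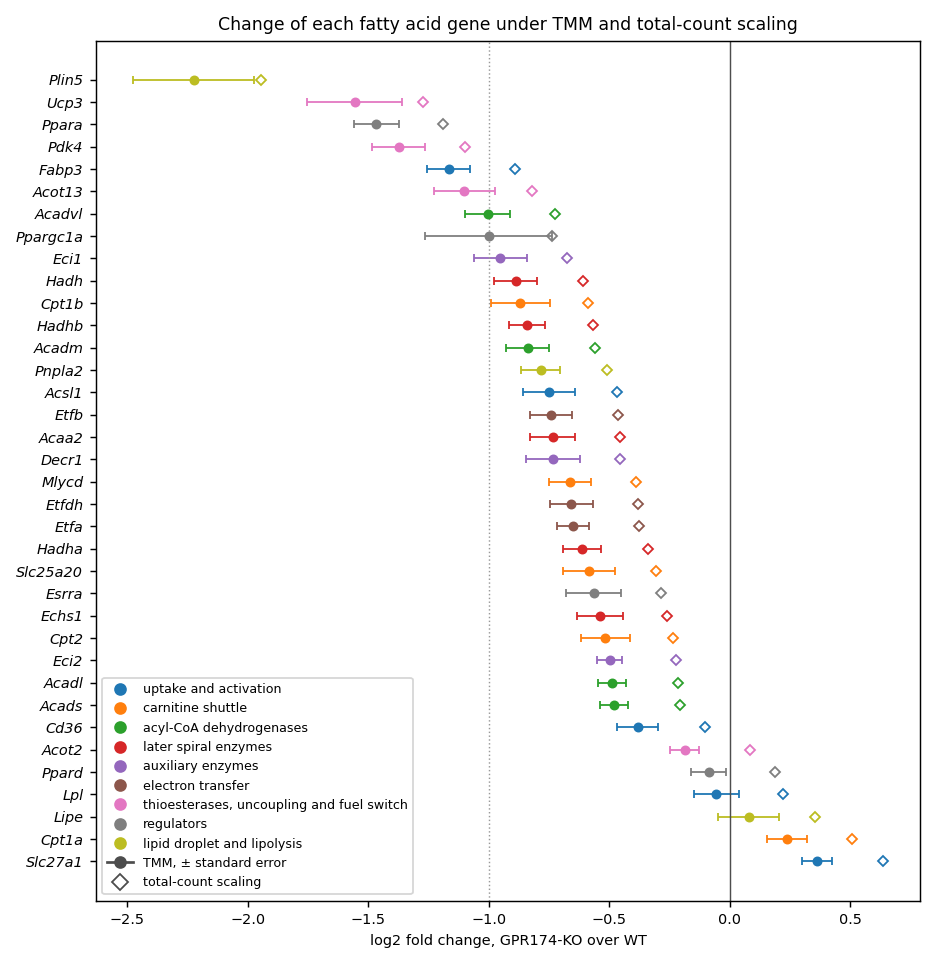
Log2 fold change of each gene in GPR174-KO over WT (horizontal axis), with filled points and standard error bars from edgeR with TMM over 6 libraries, open diamonds for total-count scaling, colour for the role and a dotted line at -1. *Plin5*, at -2.22, has the lowest value and *Slc27a1*, at 0.36, the highest, and every diamond lies to the right of its point.

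The summed level shows the size of the difference on each scale. The 36 genes summed to 5366, 5023 and 4548 CPM in WT and 3037, 3073 and 3166 CPM in GPR174-KO, 62.1% of WT. The genes of thioesterases, uncoupling and fuel choice were at 39.5% of WT, those of uptake and activation at 72.0%, and the other roles between 60.4% and 68.1%. In TPM, which is relative to all transcripts of a library, the sum in GPR174-KO was 77.2% of WT, and the groups did not overlap for 23 genes downward (11.5% of all genes) and 6 upward (64%), with 7 overlapping. The 6 were *Lpl*, *Slc27a1*, *Cpt1a*, *Acot2*, *Ppard* and *Lipe*. The 7 were *Cd36*, *Cpt2*, *Slc25a20*, *Acads*, *Echs1*, *Ppargc1a* and *Esrra*, all of which fell in the test, so their separation depends on the scale.

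Mature fibre genes fell further than the fatty acid genes. Their sum in GPR174-KO was 40.2% of WT, and the fatty acid genes gave 1.92, 2.03 and 2.25 CPM for each 100 CPM of fibre genes in WT and 2.96, 3.13 and 3.44 in GPR174-KO. This ratio, also free of library scaling, was thus higher in GPR174-KO with no overlap, at 154% of WT. Against the slow and oxidative fibre list the ratio was at 125% of WT, but the libraries overlapped (111, 96.3 and 78.5 CPM for each 100 CPM in WT, and 110, 116 and 129 in GPR174-KO). That list is not separate from the mature fibre list, because *Myh2* and *Mb* are on both. They had 1593 and 1722 of its 4832 CPM in WT replicate 1, and 336 and 419 of 2756 CPM in GPR174-KO replicate 1. The 125% rests on these shared genes and does not describe the rest of the list. The most abundant of the others, *Atp2a2*, *Casq2* and *Tnni1*, were not called (log2 fold change 0.06, 0.10 and 0.49), while the fatty acid sum was lower. *Tpm3* and *Tnnc1* were higher. *Myh7*, *Myl2* and *Myl3* fell, but none had more than 63.1 CPM in any library. Over the list without *Myh2* and *Mb* the ratio was therefore lower in GPR174-KO, and its value is not given. Against genes of mitochondrial import, porins and chaperones, the 20 genes from carnitine shuttle to electron transfer gave 67.7, 69.9 and 74.1 CPM for each 100 CPM in WT and 67.3, 67.2 and 67.4 in GPR174-KO, with each GPR174-KO value under the lowest WT value by less than the WT values differed among themselves.

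**Figure D3:**
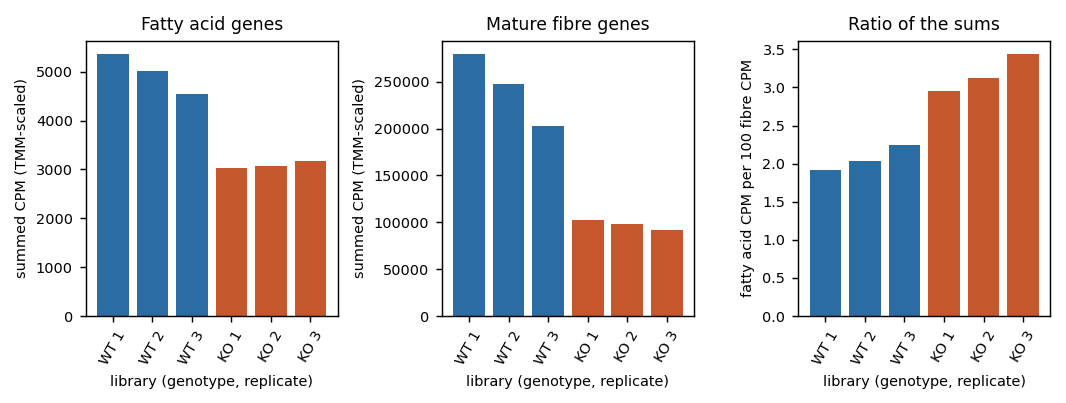
Summed CPM of the 36 fatty acid genes (left), summed CPM of the 25 mature fibre genes (middle) and the first as CPM for each 100 CPM of the second (right), with 1 bar for each library and all axes from 0. Both sums are lower in every GPR174-KO library (3037 to 3166 against 4548 to 5366 CPM for the fatty acid genes), and the ratio is higher in each (2.96 to 3.44 against 1.92 to 2.25).

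The rest of lipid metabolism was described from lists of other genes, with the same test. Other mitochondrial oxidation genes were mostly lower, with 18 of 23 lower, 1 higher and a median of -0.46. *Acacb*, which makes malonyl-CoA at the mitochondrial surface, fell by 1.14 ± 0.20 and *Echdc3* fell by 0.90 ± 0.12 on the log2 scale, while *Cpt1c*, the brain form of carnitine palmitoyltransferase 1, rose by 0.28 ± 0.08. In peroxisomal oxidation 12 of 18 were lower and 0 higher (median -0.35), with *Phyh*, which starts the breakdown of phytanic acid, at -1.15 ± 0.11 and *Abcd2*, a transporter of very long chains, at -0.97 ± 0.27. In ketone body use the median was -0.83, or -0.56 with total-count scaling. Of these genes *Bdh1*, which oxidizes beta-hydroxybutyrate and had a mean of only 2.84 CPM, fell by 2.52 ± 0.37 on the log2 scale.

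Uptake, synthesis and storage were mixed. Of 17 other genes of uptake, binding and activation, 6 were lower and 7 higher (median 0.03). *Vldlr*, a lipoprotein receptor, and *Gpihbp1*, which carries lipoprotein lipase to the capillary surface and is itself an endothelial gene, fell by 1.49 ± 0.29 and 1.29 ± 0.07. *Angptl4*, an inhibitor of lipoprotein lipase, and *Fabp5*, a binding protein of many non-muscle cells, rose by 0.98 ± 0.27 and 0.97 ± 0.08. In synthesis and desaturation 4 of 15 were lower and 6 higher (median 0.15), with *Thrsp* at -1.22 ± 0.22, *Me1*, malic enzyme, at -1.07 ± 0.24, *Elovl1*, an elongase, at 0.68 ± 0.12 and *Fads1*, a desaturase, at 0.60 ± 0.08. In droplet and triglyceride turnover 8 of 18 were lower and 5 higher (median -0.04). *Fitm1*, a droplet protein of muscle, and *Mgll*, monoglyceride lipase, fell by 1.30 ± 0.15 and 1.06 ± 0.06, and *Plin1*, the droplet coat protein of adipocytes, and *Lpin2*, a phosphatidate phosphatase, rose by 0.85 ± 0.19 and 0.74 ± 0.10. Of 12 adipocyte genes, 4 were lower and 2 higher, and their sum in GPR174-KO was 57.8% of WT. Most of that sum was *Car3*, with 2293 to 2605 of 3136 to 3372.5 CPM in WT. In GPR174-KO it had 1337 to 1374 of 1863 to 1902 CPM, so the sum does not measure adipocyte RNA. *Slc2a4*, the insulin-responsive glucose transporter, and *Car3*, carbonic anhydrase 3, both also muscle genes, were at -1.43 ± 0.16 and -0.85 ± 0.09. *Fabp4* and *Dgat2* were also lower, at -0.82 ± 0.06 and -0.61 ± 0.10. *Adipoq*, the adipokine adiponectin, and *Plin1* were higher, *Adipoq* at 0.90 ± 0.20, and 6 genes did not pass the test, so the list gave no common direction.

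Among 22 other regulators 10 were lower and 4 higher (median -0.27). *Perm1*, a muscle regulator induced by PGC-1alpha, fell by 1.83 ± 0.18 and *Prkaa2*, the muscle catalytic subunit of AMP-activated kinase, by 1.07 ± 0.19 on the log2 scale. *Hif1a*, the hypoxia-inducible factor, rose by 0.91 ± 0.13, and *Pprc1*, a relative of PGC-1alpha, rose by 0.48 ± 0.04. Of the 20 genes of mitochondrial import, porins and chaperones, 15 were lower and 0 higher (median -0.39), led by *Vdac1*, an outer membrane porin, at -1.11 ± 0.16 and *Mfn2*, a fusion protein, at -1.08 ± 0.18. With total-count scaling the medians were -0.18 for other mitochondrial oxidation, -0.07 for peroxisomal oxidation and -0.12 for import, and those of droplet turnover (0.24), other regulators (0.0067) and adipocyte genes (0.20) turned positive. With replicates 1 and 3 alone, edgeR called none of these genes at an adjusted p of 0.05. DESeq2 then called 8 lower and 0 higher in other mitochondrial oxidation, 1 and 0 in peroxisomal oxidation, 6 and 1 in uptake, 2 and 3 in synthesis, 6 and 3 in droplet turnover, 3 and 2 among adipocyte genes, 5 and 2 among regulators and 8 and 0 in import. Of the genes named from these lists, *Cpt1c* (adjusted p = 0.567), *Angptl4* (0.0601), *Dgat2* (0.0590) and *Abcd2* (0.0523) did not pass in DESeq2 there.

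**Figure D4:**
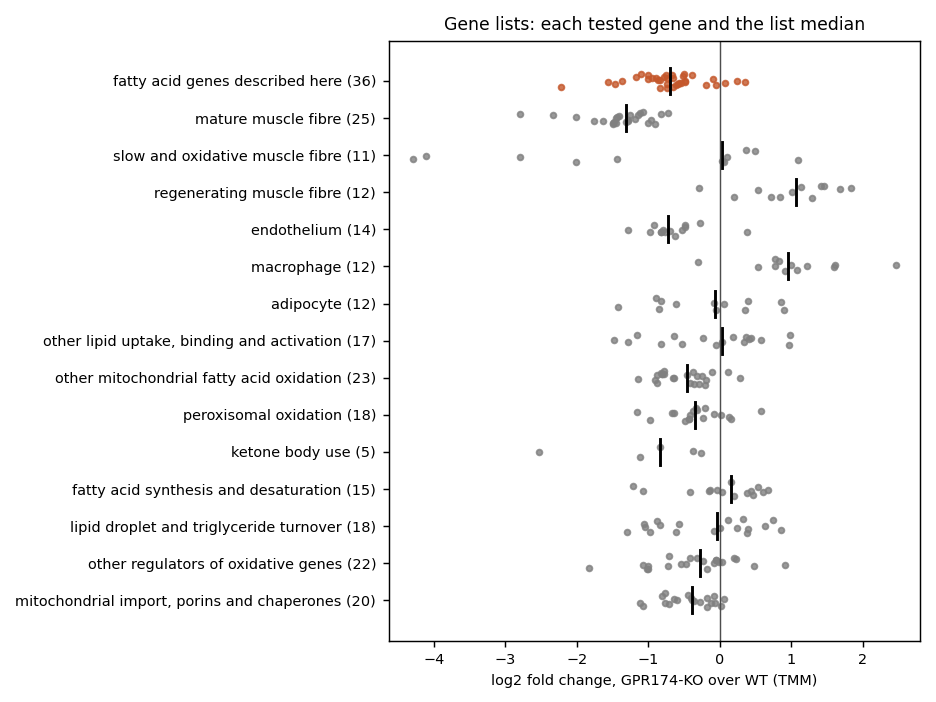
Log2 fold change in GPR174-KO over WT (horizontal axis, TMM, 6 libraries) of every tested gene in each list, with the number tested in brackets and a black bar at the list median; the fatty acid genes are in orange. Their median of -0.70 lies between that of the mature fibre genes (-1.31) and that of other mitochondrial oxidation genes (-0.46). The medians of the endothelial list (-0.73) and the ketone body list (-0.83) lie nearer to it. Those of the macrophage and regenerating fibre lists lie to the right of 0.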

How the data were processed

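RNA from ischemic gastrocnemius muscle was sequenced in 6 libraries, 3 per genotype, and 1 table of 58843 RefSeq transcripts was used. The authors deposited expected counts, that is estimated reads on each transcript, without normalization, and beside them FPKM and TPM, which the authors scaled for transcript length and library size. The submitters' processing notes name HISAT2 2.0.4, Bowtie2 2.2.5, RSEM 1.2.12 and GRCm39, without their roles. The strand use is not given in the sources used here. The authors' group averages and comparisons were not used.

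Samples were grouped by the genotype in the sample labels. Expected counts were summed by gene and rounded, and 99.71% of the genes received a symbol. The groups were compared with edgeR 4.0.16 in R 4.3.3 (TMM, filter on low counts, robust quasi-likelihood test, Benjamini-Hochberg adjustment), with the thresholds of the study, 0.05 for the adjusted p and 1 for the size of the log2 fold change. CPM values are TMM-scaled. FPKM was tested with limma 3.58.1 on log2(FPKM + 1) where 3 libraries had an FPKM of 1 or more, a scale that understates the change of low genes. Standard errors come from the fit. Sums, ratios and list medians have no test.

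The members and the other gene lists were chosen with earlier results of these data known. Values per library are given for the largest change in each role, for members that go against their role and for *Cpt1a* and *Cpt1b*. From other lists, the 2 largest changes in each direction with a mean of at least 1 CPM are named, except 1 gene that is not reported here. *Cd36*, *Pdk4*, *Acot2*, *Ppargc1a* and *Pnpla2* were given per library after their values were seen. A comparison of the proteins of *Cpt1a* and *Cpt1b* was planned and is not analysed here. Promoter sequences are from RefSeq on GRCm38.p6, not the build of the table, so no other coordinates are given.

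The mix check used genes with a mean count over 50. Same-numbered samples are different mice, and the main test did not pair them. Their deviations correlated at 0.008, 0.050 and 0.005, and 2 WT libraries correlated best with the GPR174-KO library of their own number. With replicate 2 a mix of the others, these are not separate checks and cannot show that no batch was shared. Alternatives were DESeq2 1.42.0, its size factors, limma voom, other filters, total-count scaling, FPKM, a replicate block, leaving out libraries, and 2 replicates of each group. Voom and DESeq2 on replicates 1 and 3 alone were chosen after seeing the data. The edgeR comparison was tested on simulated data, where it recovered 38 of 50 genes changed 1.5-fold and 48 of 50 changed 2-fold with 6 libraries (6 false calls among 14375 genes), and 29 and 47 of 50 with 4 libraries (13 among 14415). The simulated libraries were drawn independently with the same dispersion for every gene. Replicate 2 here equals a mix of the others, so these numbers check the code and do not bear on the p-values over 6 libraries.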

Additional observations from a re-analysis of the deposited data

How the results depend on the processing

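Of 756 results of single genes under 21 alternatives, 637 kept both their direction and their call, 101 were no longer called, 2 became called and 16 turned their direction. Leaving out 1 library at a time gave 29 to 31 genes lower, 6 to 8 of them past the fold threshold, 1 to 2 higher (1 without any library other than WT replicate 3) and a median log2 fold change of -0.73 to -0.60. Over all genes it gave 2806 to 4539 lower and 2651 to 4626 higher, and 535 to 934 and 389 to 892 past the fold threshold, with 892 higher without WT replicate 3. All 33 calls among the fatty acid genes were lost by edgeR and by voom with replicates 1 and 3 alone (0 lower, 0 higher and 0 past the fold threshold each), while DESeq2 on the same libraries kept 25 lower and 0 higher. Over all genes edgeR then called 0, voom 16 lower and 1 higher, all past the fold threshold, and DESeq2 1381 lower and 959 higher, of which 285 higher ones passed the fold threshold. With all libraries, DESeq2 called 1 higher, as did edgeR on replicates 2 and 3. On replicates 1 and 2, edgeR called 861 genes higher past the fold threshold.

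Scaling mattered next. Past the fold threshold, 4 fatty acid genes were lower with total-count scaling, 3 with limma on log2(FPKM + 1), with or without the filter, and 4 on log2(FPKM + 0.1). The medians were -0.42, -0.40 and -0.41. Over all genes those 4 alternatives, in the order total count, log2(FPKM + 1), the same without filter and log2(FPKM + 0.1), called 2010, 1823, 2075 and 1816 lower and 7303, 6817, 7416 and 6798 higher. Past the fold threshold they called 354, 162, 163 and 229 lower, and 1144 (total count) and 884 (log2(FPKM + 0.1)) higher. The share of calls that were lower went from 50.5% to 21.6% with total-count scaling. The summed level in GPR174-KO was 71.1% of WT in FPKM and 77.2% in TPM, against 62.1% in CPM. The ratio to muscle genes was 154% of WT over the mature fibre list. Over the slow list it was 125%, which rests on *Myh2* and *Mb*, genes of both lists, and the ratio was lower in GPR174-KO without them.

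In the same order, *Lpl* turned to 0.22, 0.21, 0.21 and 0.21, *Acot2* to 0.085, 0.073, 0.073 and 0.083, and *Ppard* to 0.19, 0.18, 0.18 and 0.19 on the log2 scale. Leaving out 1 library, *Lpl* lay between -0.15 and 0.014, the latter without GPR174-KO replicate 1, and *Lipe* between -0.061, without GPR174-KO replicate 3, and 0.20. *Lpl* was at 0.045 on replicates 2 and 3, and *Lipe* at -0.033 on replicates 1 and 2. Beyond fewer libraries and another scaling, which the alternatives themselves set, the cause was not tested. With the replicate block, 30 fatty acid genes were lower, 6 of them past the fold threshold, and 2 higher, and over all genes 3507 were lower and 3305 higher, 647 and 492 of them past the fold threshold. The sample labels give same-numbered libraries only a number in common.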
